A study of Drosophila melanogaster with 2 samples.

Results

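The sites described here are the Myb-GFP binding sites of Drosophila embryos whose summits lie in pericentric windows, the ends of the arms next to the centromeres, which are rich in heterochromatin, the condensed form of DNA. They were chosen by position alone, as all entries of the pooled peak list with a summit (the position of highest signal in a peak) above position 22000000 on 2L, above 22900000 on 3L, below 4200000 on 3R or above 22600000 on X of build dm6. The windows follow position, and no map of heterochromatin marks was used to check them. This gave 150 summits of 30000 in the list (0.5%), with 60 on 2L, 51 on 3L, 16 on 3R and 23 on X. The series measured where Myb sits on the chromosomes by chromatin immunoprecipitation and sequencing. Its 1 group held 2 biological replicates of whole embryos, aged 0 to 24 h and of both sexes, from a transgenic line that carries Myb with GFP at its C terminus, and an anti-GFP antibody was used for the precipitation. All cell types of the embryo are pooled in each replicate, no control sample was analysed here, and how much of the Myb in these flies carries the tag is not given in the sources used here.

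Myb binds DNA as part of Myb-MuvB, a complex that acts at promoters of genes used for mitosis and has subunits in common with the repressor dREAM. Pericentric heterochromatin consists largely of satellite DNA and transposable elements, carries the protein HP1 and methylated histone H3, and replicates late. It nevertheless contains active genes, classically light and rolled in the fly, many of them with long introns full of repeats and a dependence on their heterochromatic surroundings.

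The windows were poor in genes and in sequence that a short read can place. They covered 11.9 Mb and held 116 starts of protein-coding genes (9.89 per Mb), against 10897 starts (114 per Mb) in the 95.4 Mb of the rest of the same 4 arms. Of the windows' bases, 40.2% began a 31-base word found once in the reference, against 94.4% in the rest of the arms. Soft-masked repeats made up 40.7% of the windows and 17.5% of the rest of the arms, and annotated transposable elements 15.1% and 4.07%.

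Only 8 of the 150 pericentric summits entered the submitters' reproducible set, which they selected by the irreproducible discovery rate (IDR) and which is the 6100 strongest entries of the pooled list. The share was 5.33% (95% Wilson interval 2.73 to 10.2), against 20.3% of all entries and 20.3% (4858 of 23971) of those in the rest of the 4 arms. On chromosome 4, whose chromatin also carries HP1 along much of its length, it was 33 of 363 (9.09%, interval 6.55 to 12.5). The arms differed, with 5 of 23 summits called on X, 2 of 60 on 2L, 1 of 51 on 3L and 0 of 16 on 3R. The low share was thus seen on 2L, 3L and 3R, and X was near the share of the rest of the arms. The 8 pericentric entries made up 0.131% of the reproducible set. Intervals count entries of 1 list and do not measure variation between embryos.

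All 8 lay within 500 bp of an annotated transcription start site (TSS), 5 of them on X, 2 on 2L, 1 on 3L and none on 3R. The interval for 8 of 8 is 67.6 to 100%. Of called entries 70.8% lay there in the rest of the arms, 71.5% in the whole list and 51.5% on chromosome 4. Of the 8, 6 lay at protein-coding promoters, and the other two lay at the annotated start of an antisense RNA and of a microRNA hairpin. The 101 bases centred on the summit, from the plus strand of the RefSeq sequence of this assembly, are shown for the strongest promoter on each arm (Rab21 with Coa7 at chrX:23013384-23013484, Clamp at chr2L:22169268-22169368 and MED21 at chr3L:25115990-25116090). They are also shown for CG3651 (chr2L:22121757-22121857) and mir-2491 (chrX:22833688-22833788), which held the only Myb and CHR words among the 8. Capitals mark the words CAACGG or TAACGG (Myb), TTTGAA or TTCGAA (the cell cycle homology region, CHR) and CGATA (the word bound by the insulator protein BEAF-32), on either strand.
Rab21 and Coa7: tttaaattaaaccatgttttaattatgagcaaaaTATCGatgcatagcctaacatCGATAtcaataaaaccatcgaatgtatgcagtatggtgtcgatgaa
Clamp: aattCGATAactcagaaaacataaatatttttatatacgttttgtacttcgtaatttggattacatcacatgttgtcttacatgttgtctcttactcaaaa
MED21: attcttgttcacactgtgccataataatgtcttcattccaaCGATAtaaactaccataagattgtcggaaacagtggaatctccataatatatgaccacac
CG3651: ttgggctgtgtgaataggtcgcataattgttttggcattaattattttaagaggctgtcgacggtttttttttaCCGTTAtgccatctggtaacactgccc
mir-2491: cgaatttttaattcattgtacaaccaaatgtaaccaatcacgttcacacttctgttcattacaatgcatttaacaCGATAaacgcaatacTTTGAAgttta

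The strongest pericentric site lay on X between the divergent genes Rab21, which encodes a small GTPase of endosomal traffic, and Coa7, a factor for assembly of cytochrome c oxidase. Its signal, the peak caller's own value with an unstated scale, was 197.5 in the pooled list, 97.4 in replicate 1 and 96.2 in replicate 2. The summit at 23013434 was 25 bp from the Rab21 start and 61 bp from the Coa7 start. It ranked 2803 in the pooled list, and no pericentric site ranked higher. ATbp, which encodes a zinc-finger protein that binds AT-rich DNA, had the next site, with 192.2 in the pooled list, 121 in replicate 1 and 71.4 in replicate 2. Its summit lay at 23105934, 69 bp from the start. The antisense RNA CR45009, also on X, had 136.4 in the pooled list, 60.3 in replicate 1 and 64.9 in replicate 2, with the summit 12 bp from its start at 23007684. The 3 strongest pericentric sites were thus all on X.

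On 2L the called sites were at Clamp and CG3651. Clamp encodes the zinc-finger protein that binds GA repeats and brings the dosage compensation complex to the male X. Its site had 124.8 in the pooled list, 63.9 in replicate 1 and 57.4 in replicate 2, at 22169318, 175 bp from the start. Around it lay 3 further summits, at 62.9, 62.4 and 46.6, none of them called. CG3651 had 124.0 in the pooled list, 73.9 in replicate 1 and 47.7 in replicate 2, with the summit at 22121807, 33 bp from the start.

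The remaining 3 sites were close to the lower limit of the called set, a signal of 93.9. The site near mir-2491, which lies within CG42346 and fog (fog encodes the secreted ligand folded gastrulation), had 106.3 in the pooled list, 45.9 in replicate 1 and 59.1 in replicate 2. Its summit, at 22833738 on X, was 155 bp from the hairpin's annotated start, which is the start of the hairpin and not of a primary transcript. MED21, a subunit of the Mediator complex that links transcription factors to RNA polymerase II, had 98.8 in the pooled list, 69.8 in replicate 1 and 24.97 in replicate 2. At 2.79 the ratio of replicate 1 to replicate 2 was the highest of all pericentric sites seen in both, and the scales of the lists are not stated to be equal. The summit at the divergent genes CG17162 and su(f), of which su(f) encodes a factor of mRNA 3' end cleavage, had 98.7 in the pooled list, 40.7 in replicate 1 and 67.7 in replicate 2. It lay at 23096670 on X, 64 bp inside CG17162 from its start and 101 bp upstream of su(f).

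**Figure D1:**
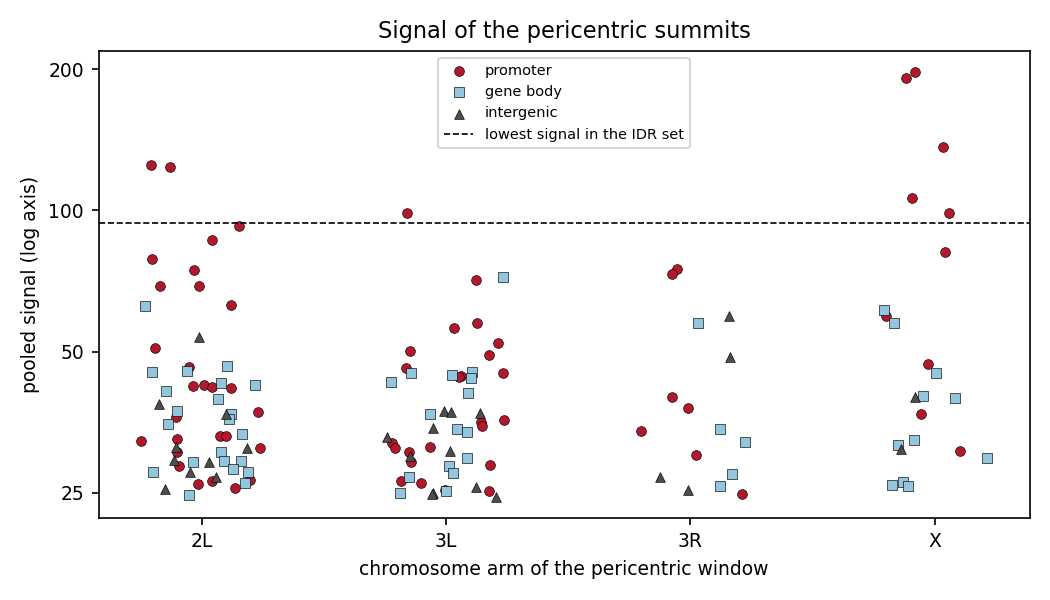
Pooled signal (log axis) of each of the 150 pericentric summits, by chromosome arm, with symbols for summits at promoters (within 500 bp of a TSS), in gene bodies and between genes; points are spread sideways at random. The 8 summits above the dashed line at 93.9 were all at promoters, 5 of them on X and none on 3R, where the highest value was 74.9.

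Below that limit came a group of further promoters, named here by rank after their values were seen. CycK, which encodes the cyclin partner of a kinase of elongating RNA polymerase II, had 92.5 in the pooled list, 59.8 in replicate 1 and 40.3 in replicate 2, and ranked 6190. RpL5, a protein gene of the large ribosomal subunit, had 86.3 in the pooled list and 58.2 in replicate 1, while the nearest summit of replicate 2, at 24.0, was 101 bp away and so missed the 100 bp limit. FucTC, a fucosyltransferase gene, had 81.5 in the pooled list, 45.2 in replicate 1 and 36.1 in replicate 2. On 3R the 2 highest were beta-Man, a beta-mannosidase gene (74.9 pooled, 56.5 in replicate 1, 34.4 in replicate 2), and CG41099 (73.2 pooled, 47.8 in replicate 1, nearest replicate 2 summit 116 bp away). The zinc-finger gene tio had 74.5 in the pooled list, 31.2 in replicate 1 and 44.1 in replicate 2, and a second summit at 68.9 with 15.6 in replicate 1 and 49.8 in replicate 2. CycK, RpL5 and FucTC were thus the 3 promoters closest below the set.

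The entries outside the reproducible set were faint. Over all 150 the pooled signal ran from 24.5 to 197.5 with a median of 35.8 (interquartile range 29.1 to 45.9), against a median of 41.0 (30.4 to 75.2) and a highest value of 6574 in the rest of the 4 arms. Chromosome 4 had a median of 35.1. Entries below the limit had medians of 34.5 in the windows and 35.8 in the rest of the arms, while 21.3% of pericentric entries and 39.2% of those in the rest of the arms exceeded 50. The 8 called pericentric sites had a median of 124.4, below the 183.8 of called sites in the rest of the arms and the 142.7 of those on chromosome 4. All 150 intervals were 476 bp wide, the width that 61.1% of called entries in the series had. It was also the usual width of fainter entries. For those outside the set in the rest of the arms, the median and both quartiles were 476 bp.

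**Figure D2:**
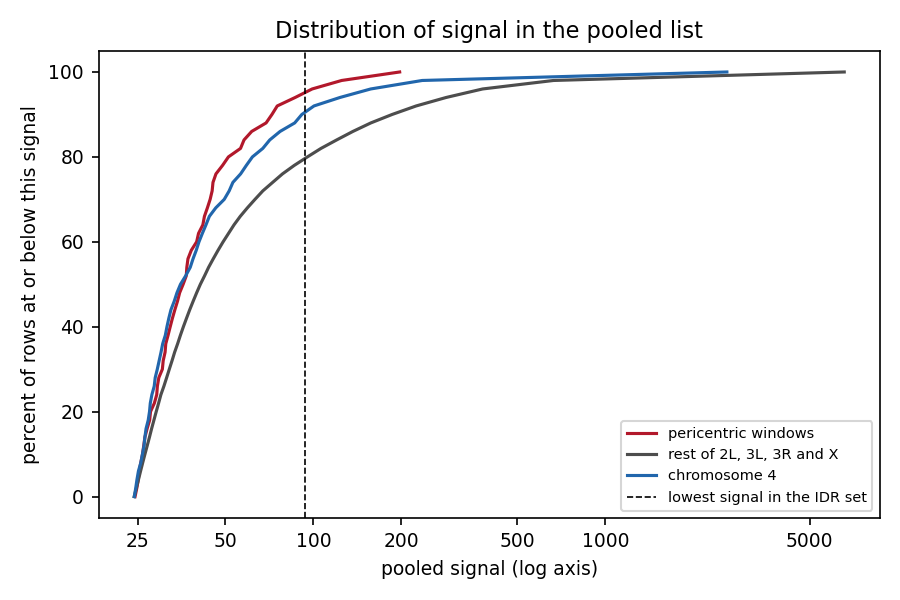
Percent of pooled-list entries at or below a given signal (log axis) in the pericentric windows, in the rest of 2L, 3L, 3R and X and on chromosome 4; the dashed line is the lowest signal of the reproducible set, 93.9. The curves start together near 24 and then separate, with medians of 35.8 in the pericentric windows, 41.0 in the rest of the arms and 35.1 on chromosome 4, and the pericentric one ends at 197.5.

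All 8 called sites were seen in both replicates, as were 46 of the other 142. The called set was selected for reproducibility, and 95% of called entries in the rest of the arms and 33 of 33 on chromosome 4 were seen in both. A replicate 1 summit lay within 100 bp of 101 pericentric summits (67.3%), against 66.8% in the rest of the arms and 66.5% of all entries. For replicate 2 the count was 91 (60.7%, interval 52.7 to 68.1), against 71.0% in the rest of the arms and 71.2% of all entries. Both replicates held 54 (36%, interval 28.8 to 43.9), against 47.3% in the rest of the arms and 47.1% of all entries. On chromosome 4 the share was close to that of the windows, at 133 of 363 (36.6%). Of the pericentric summits 12 (8%) were seen in neither. Pericentric entries are fainter, and outside the reproducible set the share seen in both was 32.4% in the windows and 35.2% in the rest of the arms. Below a signal of 30 it was 5 of 44 (11.4%) and 3.43%, and between 30 and 40 it was 10 of 48 (20.8%) and 25.2%. Between 40 and 60 it was 21 of 36 (58.3%) and 58.1%, and between 60 and 94 it was 10 of 14 (71.4%) and 82.6%.

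Neither replicate was higher throughout. Across the 54 sites seen in both, replicate 1 was higher at 26, the ratio of replicate 1 to replicate 2 ran from 0.314 to 2.79, and its median was 0.962 (interquartile range 0.777 to 1.25). In the rest of the arms the median was 0.940 (0.725 to 1.18). Spearman's rho of the replicate signals was 0.54 across the 54 sites, which share their libraries and are not independent. The lowest ratio belonged to the second tio summit and the highest to MED21.

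**Figure D3:**
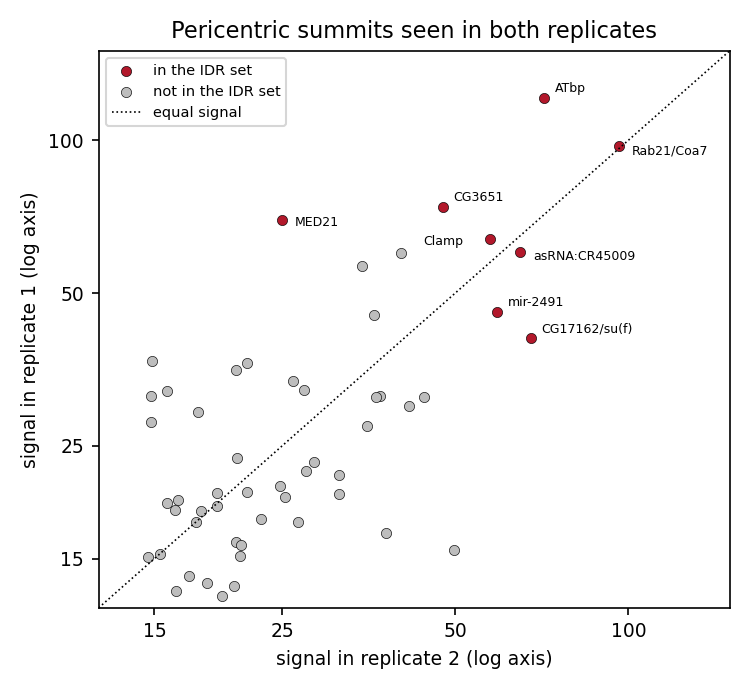
Signal in replicate 1 against replicate 2 (both log axes) for the 54 pericentric summits seen in both replicates, with the 8 of the reproducible set named and the dotted line at equal signal. Rab21/Coa7, Clamp and CR45009 lie near the line, and MED21 stands off it at 69.8 in replicate 1 and 24.97 in replicate 2.

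Most pericentric summits lay at or in genes, and all 8 reproducible ones within 500 bp of an annotated start, counting that of the mir-2491 hairpin. In the rest of the arms 70.8% of the reproducible entries did. At promoters were 69 (46%), in gene bodies 54 (36%) and between genes 27 (18%), against 35.9%, 49.5% and 14.7% in the rest of the arms. The windows hold few promoters: 1.90% of their sequence lies within 500 bp of a TSS, against 14.8% in the rest of the arms. Median signal was 42.1 at promoters, 34.3 in gene bodies and 31.02 between genes, against 68.1, 35.7 and 36.4 in the rest of the arms. With starts of protein-coding genes alone, 57 (38%) of the 150 and 6 of the 8 called sites were at promoters, against 33.3% and 69.2% in the rest of the arms.

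The low share in the reproducible set was seen within promoters as well, on 2L, 3L and 3R but not on X. Called were 2 of 28 promoter summits on 2L, 1 of 24 on 3L, 0 of 7 on 3R and 5 of 10 on X. Of the 69 pericentric promoter summits 8 (11.6%, interval 5.99 to 21.3) were called, against 3439 of 8594 (40.02%) in the rest of the arms and 17 of 110 (15.5%, interval 9.88 to 23.4) on chromosome 4. Away from promoters none of 81 was called, with an upper interval bound of 4.53%, against 9.23% in the rest of the arms and 6.32% on chromosome 4. The pericentric and chromosome 4 intervals overlapped in both classes.

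Counted per gene, 8 of the 116 protein-coding genes that start in the windows had a called summit within 500 bp of a start (6.90%, interval 3.54 to 13.0). These were Rab21, Coa7, ATbp, Clamp, CG3651, MED21, CG17162 and su(f). Rab21 and Coa7 share a summit, as do CG17162 and su(f), so the 8 genes rest on 6 summits and are not independent counts. The share was 36.1% of the 10897 genes in the rest of the arms and 35.6% of all genes, and on chromosome 4 it was 16 of 80 (20%, interval 12.7 to 30.1). Any summit of the pooled list was found at 45 pericentric genes (38.8%), against 59.0% in the rest of the arms and 59.1% of all genes, and at 80% of those on chromosome 4. In a check added after the data were seen, 102 of the pericentric genes had at least 95% unique 31-base words within 100 bp of the start, and among these the share called was 7.84% (interval 4.03 to 14.7), against 37.3% of such genes in the rest of the arms.

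The called pericentric genes were mostly ones with a divergent neighbour, a split made after the data were seen. Of the 17 genes with a TSS of any gene on the other strand, pointing away, within 1 kb upstream, 6 were called (35.3%, interval 17.3 to 58.7), against 58.3% of 4338 such genes in the rest of the arms. Among the 99 without one, 2 were called (2.02%, interval 0.556 to 7.07), against 21.4%. A summit between 2 divergent genes counts for both, as at Rab21 with Coa7 and at CG17162 with su(f). The intervals treat such genes as independent and are too narrow for them. Divergent neighbours are rarer in the windows, at 14.7% of genes against 39.8%. Both arrangements had a lower called share in the windows than in the rest of the arms. With 17 genes the upper bound for the divergent ones nevertheless reached the value of the other arms. On chromosome 4 the shares were 6 of 32 (18.8%, interval 8.89 to 35.3) with a divergent neighbour and 10 of 48 (20.8%) without. The windows thus lay above chromosome 4 for divergent genes, with overlapping intervals, and below it for the others. By length, in the windows 2 of 66 genes of 5 kb or longer (3.03%, interval 0.835 to 10.4) were called. Of the 50 shorter ones 6 were called (12%, interval 5.62 to 23.8). The shares were 45.7% and 32.9% in the rest of the arms. On chromosome 4 they were 14 of 62 (22.6%) and 2 of 18 (11.1%), the latter near that of shorter genes in the windows.

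**Figure D4:**
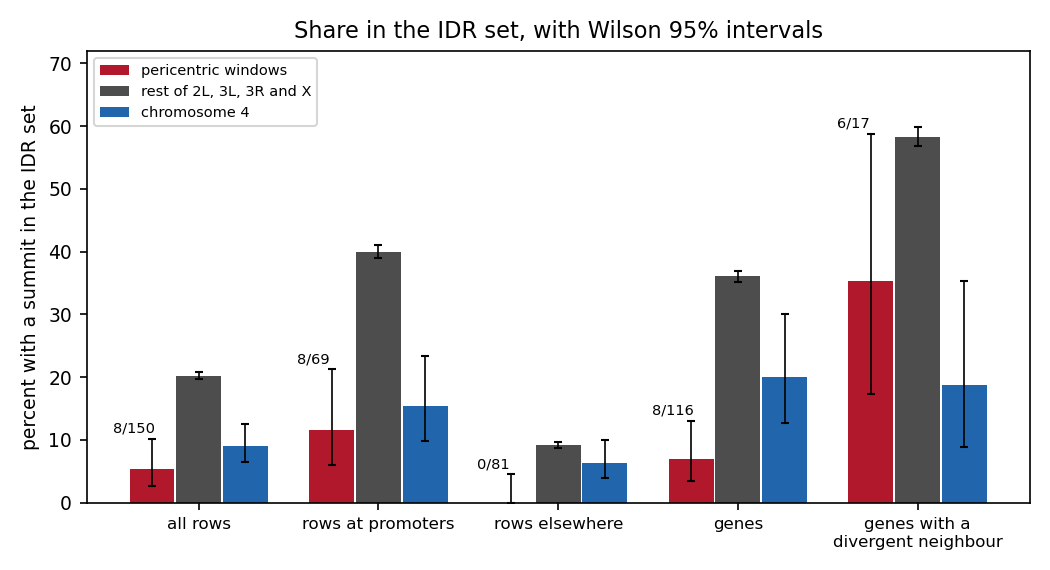
Percent in the reproducible set, with 95% Wilson intervals, of all pooled-list entries, of entries at promoters and elsewhere, and percent of protein-coding genes and of those with a divergent neighbour that had a called summit, for the pericentric windows (fractions printed), the rest of 2L, 3L, 3R and X and chromosome 4. The pericentric bars are the lowest of the 3 in the first 4 measures, from 0 of 81 elsewhere to 8 of 69 at promoters. For genes with a divergent neighbour the pericentric bar (6 of 17) is above that of chromosome 4 (6 of 32).

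Genes long known to lie in heterochromatin had summits at a share close to that of all pericentric genes. All 15 on a list of such genes started in the windows, 6 had any summit within 500 bp of a start, and 1, su(f), was called, near the 38.8% and 6.90% of all genes in the windows. The other five with a summit were RpL5 (86.3 pooled), cta, RpL15, Dbp80 and vtd. Concertina (cta), a G protein subunit used in gastrulation, had 46.3 pooled, 32.1 in replicate 1 and 15.8 in replicate 2. The RNA helicase gene Dbp80 had 44.2 pooled, 22.3 in replicate 1 and 27.5 in replicate 2. RpL15 had 46.0 pooled at a summit seen in replicate 1 alone, at 41.5, and 25.2 pooled at a further summit seen in replicate 2 alone, at 26.4. The gene vtd, for the cohesin subunit Rad21, had 28.6 pooled and 16.8 in replicate 2 alone.

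No summit was found within 500 bp of a start of the remaining 9. They were lt (light, a factor of vesicle sorting to the lysosome), AGO3 (an Argonaute protein of the piRNA pathway), Set1 (a histone H3 methyltransferase), Parp1 (poly(ADP-ribose) polymerase), Cht10 (a chitinase), Snap25 (a protein of synaptic vesicle fusion), Myo81F (a myosin) and the ecdysone synthesis genes nvd and spok. The nearest summit to Set1 was 6762 bp away and was the called one at MED21. For lt it was 57055 bp away, and for Myo81F, whose gene spans 1966 kb, 2807075 bp. A missing summit means only that the pooled list, which stops at a signal of 24.3, held none there.

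The ribosomal protein genes showed the same split between presence in the pooled list and in the reproducible set, in families taken by symbol after the data were seen. All 4 cytosolic ones in the windows, RpL5, RpL10, RpL15 and RpL21, had a summit at a start and none was called. Elsewhere 80 of 84 (95.2%) had a summit and 67 (79.8%) were called, so a summit at the start was common to the family. RpL10 had 45.0 pooled, 36.7 in replicate 1 and 14.9 in replicate 2, and RpL21 had 30.6 pooled and 19.1 in replicate 1 alone. The mitochondrial ribosomal gene mRpS5 had 31.9 pooled and was not called. Of 72 such genes elsewhere 71 (98.6%) had a summit and 65.3% were called. The 2 pericentric genes of respiratory complex I, ND-AGGG and ND-MLRQ, had no summit, against 30 of 38 elsewhere with one. These are 7 genes in all, too few for a share.

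Away from genes' starts the signals were low. Over 1 kb from every TSS lay 66 summits (44%), against 52.3% in the rest of the arms, and the strongest of them was in nrm, the gene of the adhesion protein neuromusculin, with 72.05 in the pooled list, 29.99 in replicate 1 and 41.6 in replicate 2. It lay 17553 bp inside the gene and had nearly the pooled signal of the summit at the start of nrm, which had 71.1 pooled and 57.9 in replicate 2 and was not seen in replicate 1. The next were in zyd (61.3), upstream of CG42402 (59.7), in CG12581 (57.4), upstream of Slmap (53.8), near spok (48.8, 51341 bp from its start), and in Clamp (46.6), CG42748 (45.3), tio (45.3) and l(3)80Fg (45.1). Of these 10, CG12581 and the site near spok were seen in replicate 1 alone, and the other 8 in both. The 35.0 kb gene CG42748 held 15 summits, the most of any gene in the windows, and none was called. Summits formed 116 clusters with gaps of at most 1 kb, of which 91 held 1 summit and the largest 4.

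Summits thinned out towards the centromeres. In the 4 arms together there were 383 summits between 1 and 0.5 Mb outside the borders, 314 in the 0.5 Mb outside them, 103 in the first 0.5 Mb inside, 19 in the next 0.5 Mb and 28 in everything deeper, which is 7.79 Mb. Per Mb of unique sequence these were 271.7, 212.6, 77.7, 25.4 and 10.6, and without the 0.5 to 1 Mb band, which held 19 genes, the order was the same. Per protein-coding gene the decline was less steep. There were 2.04 summits per gene in the outermost band, 1.44 just outside the borders, 1.52 in the first 0.5 Mb inside and 0.966 beyond 1 Mb. The called share was 6 of 103 (5.83%) in the first 0.5 Mb inside, against 49 of 314 (15.6%) in the 0.5 Mb outside. Called summits numbered 67, 49, 6, 1 and 1 from the outermost band inwards, in bands with 188, 218, 68, 19 and 29 genes.

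**Figure D5:**
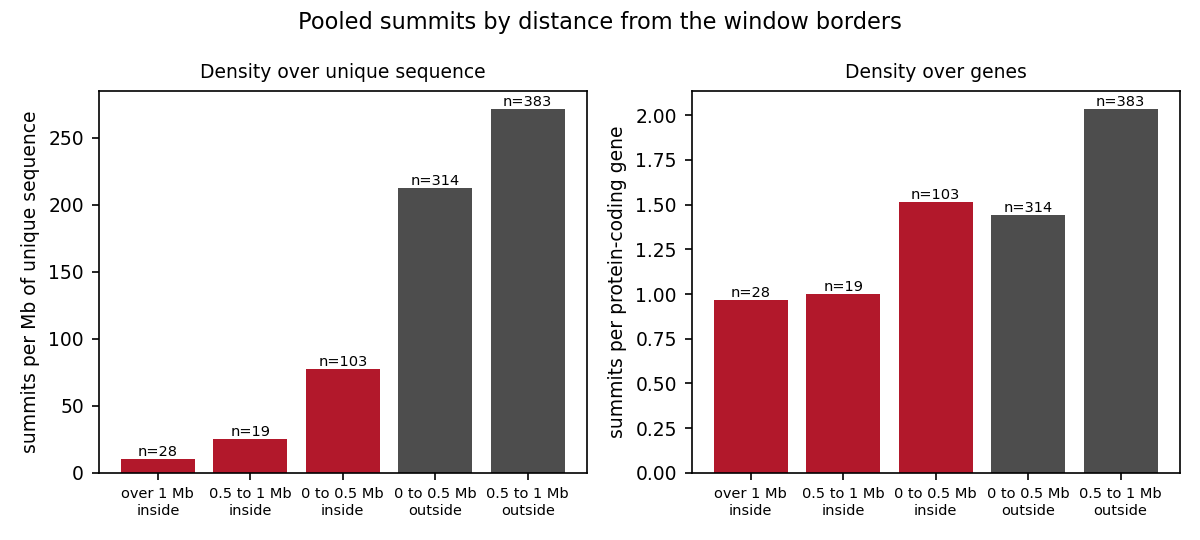
Pooled summits per Mb of unique sequence (left) and per protein-coding gene (right) in bands of distance from the 4 window borders, with the deepest band at the left and the number of summits on each bar; bands inside the windows are red and outside grey. The left panel falls from 271.7 outside to 10.6 in the deepest band, while the right panel goes from 2.04 in the outermost band to 0.966 in the deepest.

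The windows of the 4 arms were unequal. That on 2L held 81.3 summits per Mb of unique sequence, that on X 47.3, that on 3L 24.6 and that on 3R 11.3. Window 3R had 15 of its 16 summits in the outermost 0.5 Mb and its innermost at 3374151, so that the last 3.37 Mb of the arm held none, a stretch that contains the start of Myo81F. On 3L summits reached far in, with 9 between 4 and 4.5 Mb inside the border, where RpL15 and Dbp80 lie. X had 5 of the 8 called sites in 23 summits and 0.94 Mb. As a share of summits this was near the 20.3% of the rest of the arms. Per Mb of unique sequence X had 10.3 called sites, against 2.71 on 2L, 0.482 on 3L and 0 on 3R, and 54.0 in the rest of the arms. At the borders themselves, the first summit inside was 74.5 at tio on 2L, 34.4 on 3L, 74.9 at beta-Man on 3R and 57.4 near Cda4 on X. The last outside was 26.03 on 2L, 28.8 on 3L, 170.9 near CG14636 on 3R and 32.8 on X, and only that on 3R was called.

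Per Mb the windows held 12.8 summits and 0.682 called ones, against 251.5 and 50.97 in the rest of the arms and 272.7 and 24.8 on chromosome 4. Counted over unique sequence the values were 31.8 and 1.70, against 266.5 and 54.0, and 324 and 29.5 on chromosome 4. Per protein-coding gene they were 1.29 and 0.0690, against 2.20 and 0.446, and 4.54 and 0.413 on chromosome 4. For called sites the rest of the arms exceeded the windows 74.7-fold per Mb, 31.8-fold per Mb of unique sequence and 6.46-fold per gene, and for all summits 19.7-fold, 8.37-fold and 1.70-fold. How reads from repeats were placed by the submitters is not given in the sources used here, and its part in these densities was not tested.

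The summits themselves sat in unique sequence within this repetitive surrounding. Short reads are hard to place in repeats, so whether Myb itself avoids repeats cannot be told from these values and was not tested. Within 100 bp of a pericentric summit on average 97.8% of bases began a unique 31-base word and 18.0% were soft-masked, against 99.7% and 15.8% in the rest of the arms, and around the 8 called sites it was 100%. In an annotated transposable element lay 5 of 150 (3.33%, interval 1.43 to 7.57), against 0.317% in the rest of the arms and 15.7% on chromosome 4. None of the 5 was called. Annotated elements covered 62.6% of 3L at 0.5 to 1 Mb inside the border and 5.2% at 4.5 to 5 Mb. How complete the annotation is in the windows was not tested, so the 5 may be an undercount. Tandem runs of AATAT, of AAGAG, of AACAC, of AATAC or of AACAG, at least 3 in a row on either strand, were found within 100 bp of none of the 150 summits and of 7 of 23971 in the rest of the arms. Median GC content was 37.8% around pericentric summits and 40.8% in the rest of the arms, and 33.3% to 38.8% around the called ones.

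Words known from the Myb-MuvB complex were found at few of the 8 called sites, a number too small to set their shares apart from those of the rest of the arms. Within 50 bp of the summit a CHR word (TTTGAA or TTCGAA) was found at 1 of the 8, mir-2491, against 23.5% of called sites in the rest of the arms, and a Myb word (CAACGG or TAACGG) at 1, CG3651, against 9.51%. With 8 sites the Wilson intervals reach from 2.24% to 47.1%, and within 100 bp the CHR word was at 3 of the 8 (37.5%). Over all 150 summits the CHR share was 16.7% and the Myb share 2.0% (interval 0.682 to 5.72), against 16.3% and 6.33% in the rest of the arms. Around the 172 TSSs of protein-coding genes in the windows the shares were 9.30% and 8.72%, against 16.8% and 6.78% of 19080 other TSSs.

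The word CGATA, the core of BEAF-32 sites, was looked for after the data were seen. It occurred at 6 of the 8 called sites, as the capitals in the sequences above show for Rab21 and Coa7, Clamp, MED21 and mir-2491, and also at ATbp and CR45009 (75%, interval 40.9 to 92.8), against 28.3% of called sites in the rest of the arms. On chromosome 4 the word was at 14 of 33 called sites (42.4%, interval 27.2 to 59.2), and this interval overlaps that of the windows. All 8 lay at promoters, against 70.8% of called sites in the rest of the arms, so the compared sets differ in position. Over all pericentric summits CGATA was at 34 of 150 (22.7%), against 16.0%. Around TSSs of protein-coding genes it was at 29.1% in the windows, against 23.5% elsewhere. Rab21 with Coa7 and CR45009 held it 2 times each. The longer word TATCGATA of the DNA replication-related element, also looked for after the data were seen, which contains CGATA, was at none of the 8 and at 3 of 150, against 1.88% of summits in the rest of the arms. A word in a window is a description and not evidence that the factor binds there.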

How the data were processed

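Myb-GFP binding was measured in 2 biological replicates and no control was analysed here. The deposited peak lists were used as the authors made them: relaxed lists per replicate and for the pooled reads, and the IDR set of 6100 entries, on build dm6, with dm3 lists used only for scaffold counts. Per the labels, the peaks were called on both builds; caller, aligner and read depth are not given in the sources. The deposited signal per peak is on a scale that is not stated and was compared between places within 1 list. Signals of the replicate lists were also set beside each other as ratios, which assume like scales. Deposited −log10 q values were not used in any result. Summits are the interval start plus the offset, and coordinates are 1-based.

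Membership was set by summit position. A summit was seen in a replicate when a summit of that list lay within 100 bp. TSSs came from Ensembl release 115 without transposable elements, and sequence from the RefSeq copy of the same assembly. A base was called unique when the 31-base word starting there occurred once on either strand. Shares carry Wilson 95% intervals, for counting only. With 1 group of 2 replicates no comparison could be tested over samples, so none was. Named genes were the called promoters, a list of 15 heterochromatic genes (2 found through RefSeq synonyms) and the 10 strongest summits over 1 kb from a TSS. Members and lists were chosen with earlier results of these data known. Functions for windows, matching and distances were tested on simulated data. Python 3.11.15 with pandas 2.3.3 and scipy 1.17.1 was used.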

Additional observations from a re-analysis of the deposited data

How the results depend on the processing

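Moving the 4 borders changed the number of summits most: 47 lay in the windows with borders 500 kb nearer the centromere and 464 with borders 500 kb nearer the telomere. The nearer-telomere borders gave 12.3% of summits in the reproducible set, and 15.3% of genes with a called summit. Counting only the entries of the reproducible set above its median signal, the share of summits was 1.33% (2 of 150). That median lies at rank 3050 of the 30000 entries, so the 20.3% of all entries in the full set is not the value to set beside it. Added after seeing the data, summits at promoters alone gave 11.6% in the set, and genes with and without a divergent neighbour gave 35.3% and 2.02%. The share seen in both replicates was 23.3% with a 50 bp limit and 54.7% with 250 bp. Called sites with a CHR word ran from 0% to 16.7% and those with a Myb word from 0% to 8.33% when 1 replicate list stood in for the pooled one, and both were 0% with words searched within 25 bp. Within 100 bp the CHR share was 37.5%, 3 of 8 sites. These shares rest on 7 to 12 sites. Counting elements within 100 bp of the summit gave 6.67% (10 of 150) in transposable elements. With replicate lists the share of summits among the strongest 6100 ran from 4.38% (replicate 2) to 6.52% (replicate 1). With the stretch around the start at least 95% unique, also added after seeing the data, 7.84% of genes had a called summit. No paired analysis was possible because the series has a single group. Depth is unknown, so a site missing from the lists may lie below their lower limit, 24.3 in the pooled list.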

Other observations

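The dm3 build keeps part of the heterochromatin as separate scaffolds, and its lists were read for those without converting positions. On 2LHet, 3LHet, 3RHet and XHet the pooled list held 4, 16, 9 and 9 summits, 38 of 30000, with signals from 23.7 to 193.4. The reproducible set of that build had 6032 entries, against 30000 in its pooled list. It held 3 of the 38, 1 on 3LHet at 97.6 and 2 on XHet at 193.4 and 98.1. The replicate signals of these 3 were 69.8 and 24.8 on 3LHet, 121 and 71.5 for the stronger on XHet, and 40.7 and 67.8 for the other, in replicate 1 and replicate 2. Pooled and replicate signals were close to those of MED21, ATbp and CG17162 with su(f) on dm6. They may therefore be the same sites and not further ones, but positions were not compared.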
